A study of Rattus norvegicus with 30 samples.

Results

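Zinc deficiency was compared with zinc sufficiency in the oesophageal epithelium of rats that lack the microRNA miR-31. The comparison used the 6 arrays titled ZD-mir31KO and the 4 titled ZS-mir31KO, 10 of the 30 arrays of the series, and these titles alone chose them. The rats were male miR-31-/- animals made with CRISPR/Cas9 in the Sprague-Dawley strain. They were assigned at random to a zinc-deficient (ZD) or zinc-sufficient (ZS) diet at 4 weeks of age. All of them then received NMBA (N-nitrosomethylbenzylamine), which induces tumours of the rodent oesophagus, in 4 weekly intragastric doses of 2 mg/kg from week 5, by the assay described for rats without a gene edit. In that assay tissue was taken 15 weeks after the first dose, so the deletion and the carcinogen are common to both diets. Pair-feeding of the ZS rats is stated for the unedited rats, and the labels do not repeat it for the knockouts. Whether the line goes back to 1 founder is not given in the sources used here, and the miR-31+/+ littermates were not analysed here. For comparison, 5 arrays titled ZD_untreated_CTRL and 5 titled ZS_untreated_CTRL came from male Sprague-Dawley rats with no gene edit and no antimiR oligonucleotide, on the same diets and the same NMBA doses. The labels number the arrays without saying in words that each is a separate animal, so the p-values measure only the spread between these samples.

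Zinc is a cofactor of many enzymes and a structural part of zinc-finger proteins, and dietary zinc deficiency in the rat makes the squamous lining of the oesophagus thicken, become inflamed and become more sensitive to NMBA. miR-31 is a microRNA whose level is raised in squamous carcinomas and in the zinc-deficient rat oesophagus. A microRNA guides the silencing complex to messenger RNAs that pair with its seed, so its loss releases such targets on either diet. The arrays do not measure miR-31 itself, and its absence could not be checked on them. The mature strands of the microRNA that the knockout is named for are shown here with the seed, bases 2 to 8, in capitals, as RefSeq gives them on GRCr8. The 5′ strand lies at chr5:108714906-108714927 and the 3′ strand at chr5:108714869-108714891, both on the minus strand, and their seeds differ.
miR-31a-5p: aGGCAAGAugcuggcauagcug
miR-31a-3p: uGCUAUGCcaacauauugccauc

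Levels are log2 values from robust multi-array averaging (RMA), for 14217 genes with 1 probe set each, and every difference is ZD minus ZS on the log2 scale. Of 13 fixed markers of squamous epithelium, 10 were measured, and on every knockout array each lay between the 88.1 percentile and the top of all genes, with Krt4 and Krt13, keratins of the suprabasal oesophagus, near the top. Smooth muscle genes were also present at high levels, with a mean over 20 genes of 10.05 to 10.87 on the ZS arrays and 8.85 to 10.23 on the ZD arrays. The ZS array LF32 stood apart. It was the highest or the lowest of the 10 arrays for 6888 genes, against 1428 to 4213 genes for the others. Its mean over 27 macrophage and antigen presentation genes was 9.08, against 7.33 to 8.14 on the other ZS arrays and 6.96 to 7.61 on the ZD arrays. Its mean over 23 T and B cell genes was 7.20, against 5.21 to 5.93 and 5.23 to 5.51. Fibroblast and endothelial genes were likewise highest on LF32, at means of 9.83 and 7.83. Genes and lists are therefore given with and without it, and ZS values are in the order LF30, LF31, LF32 and LF33.

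**Figure D1:**
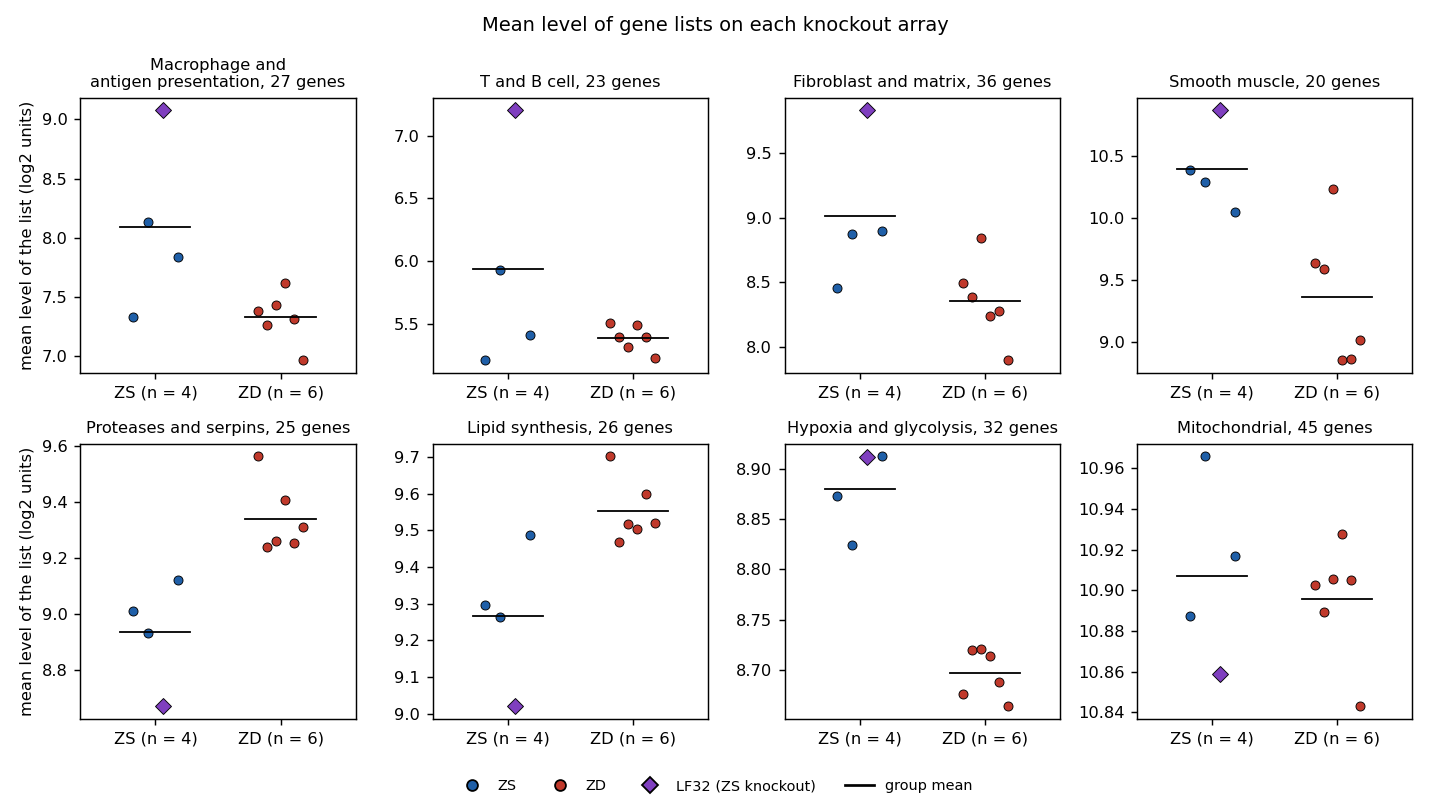
Mean level (log2 units) of 8 gene lists on each knockout array, with ZS and ZD as separate columns of points, LF32 as a diamond and group means as lines. LF32 has the highest mean of the macrophage, T and B cell, fibroblast and smooth muscle lists and the lowest of the protease and serpin list, at 8.67. The ZD and ZS points of the protease and serpin, and hypoxia and glycolysis lists do not overlap.

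Control measures that depend on RNA or labelling also differed between the diets in these rats, though not in the same direction. Affymetrix arrays carry control probe sets at the 3′ and 5′ ends of a few transcripts, and the difference between them depends on how far labelled fragments reach toward the 5′ end. For beta-actin the 3′ minus 5′ difference was 2.03, 1.36, 1.29 and 1.20 on the ZS arrays and 2.29 to 4.08 on the ZD arrays, with LF35 at 4.08 and the others at or below 2.84. For the hexokinase control it was 1.41 to 1.65 on the ZS arrays and −0.18 to 0.52 on the ZD arrays. The 20 arrays of unedited rats were the 10 untreated ones, 5 titled ZD-Anti-miR31_5weeks and 5 titled ZD-Anti-miR31_20weeks. These 20 read 2.40 to 2.92 and −0.13 to 0.30. The 4 ZS knockout arrays lay outside all of them on both measures, and most ZD knockout arrays lay nearer to them. Neither measure overlapped between the diets (exact permutation test over 210 splits, two-sided p = 0.00476 each, Benjamini-Hochberg adjusted p = 0.0167 over the 7 control pairs). The Gapdh control gave p = 0.0667 and the 4 spike-in controls p = 0.386 to 0.871 in the same exact test. LF35 was the highest ZD array on these controls too. It read 1.23 for Gapdh, against at most 0.55 on the other ZD arrays. For the Dap, Thr, Phe and Lys spike-ins it read 3.72, 3.21, 2.13 and 2.54, against at most 2.16, 1.83, 0.99 and 1.67. Beta-actin and hexokinase moved in opposite directions, with ZD minus ZS means of 1.30 and −1.25. These differences and diet cannot be told apart in the knockout rats. Each passing result below was also fitted with the beta-actin difference of each array as a covariate, which does not stand for the hexokinase difference. LF35 lay far from the rest of its group on that measure, so a fit with this covariate leans on LF35. Passing or not passing with it is therefore a description.

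**Figure D2:**
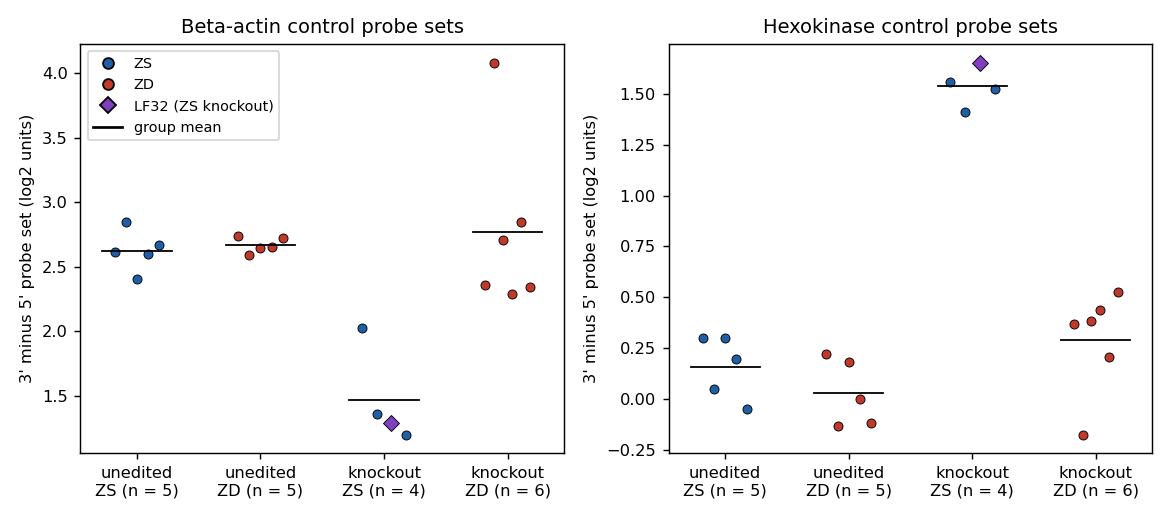
Difference between 3′ and 5′ control probe sets (log2 units) for beta-actin and hexokinase on the 20 arrays of untreated unedited and knockout rats, with a point per array and lines at group means. The 4 ZS knockout arrays are the lowest for beta-actin, at 1.20 to 2.03, and the highest for hexokinase, at 1.41 to 1.65.

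In the knockout rats 3049 of 14217 genes differed between the diet groups (21.4%), of which 1347 were higher (9.47%) and 1702 lower (12%) on the ZD diet. Most changes were small. The median size among the called genes was 0.42 log2 units and 94.6% were under 1, with 39 genes at least 2-fold higher and 127 at least 2-fold lower. The ZD and ZS values did not overlap for 2037 genes (14.3%). Without LF32 the count was 1566 (11%), with 633 higher (4.45%) and 933 lower (6.56%). Of the called genes 1507 passed in both fits, 1542 only with LF32 and 59 only without it. With the beta-actin covariate 983 genes passed, 862 of them among the 3049, and with the smooth muscle mean of each array as a covariate 1470 passed, 1307 of them among the 3049. Higher genes made up 44.2% of the calls, and 54.9% when each array was centred on its median, which moved the median of all genes from 0.01 to 0.04. The counts of each list below stand next to 9.47% of all genes higher and 12% lower, or 4.45% and 6.56% without LF32. With the beta-actin covariate 421 of all genes were higher and 562 lower. Under it the decreases were 0 of 27 macrophage, 0 of 23 T and B cell and 1 of 36 fibroblast genes. They were 2 of 23 endothelial, 2 of 30 interferon and 3 of 20 smooth muscle genes. The increases were 4 of 25 protease and serpin genes and 5 of 29 cornified envelope genes.

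**Figure D3:**
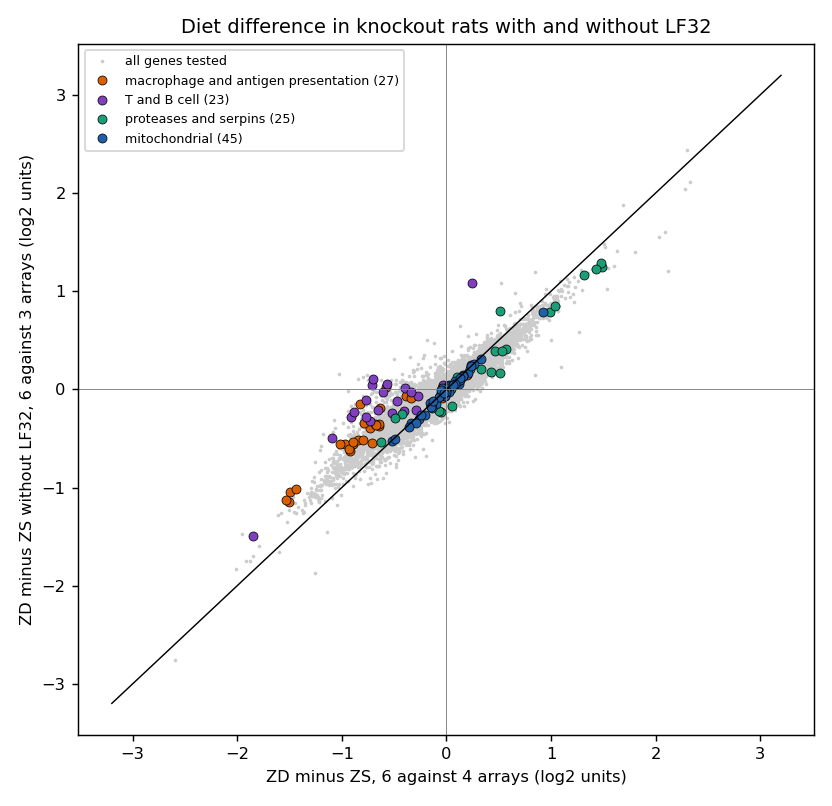
Diet difference (ZD minus ZS, log2 units) of every gene tested with all 10 knockout arrays (x axis) and without LF32 (y axis), with the line of equal values and 4 gene lists in colour. Macrophage and T and B cell genes lie above the line on the left, nearer to 0 without LF32, while mitochondrial genes lie close to the line.

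The increases on the ZD diet began with ligands of the epidermal growth factor (EGF) receptor, which drive keratinocyte growth. Epiregulin (Ereg) read 6.48, 5.85, 5.27 and 6.80 on the ZS arrays and 6.91 to 7.80 on the ZD arrays, with a median of 7.43. Every ZD array was above every ZS array, and Ereg rose by 1.29 (SE 0.23, adjusted p = 0.000297; 1.02 without LF32, adjusted p = 0.00337). Transforming growth factor alpha (Tgfa) read 8.84, 8.38, 7.86 and 8.56 against 9.04 to 9.50, with a median of 9.23, and rose by 0.84 (SE 0.21, adjusted p = 0.005; 0.66 without LF32, adjusted p = 0.0454). The heparin-binding ligand Hbegf overlapped between the diets and was 0.68 higher (adjusted p = 0.0489; 0.56 without LF32, adjusted p = 0.187). Adam17, the protease that sheds these ligands from the membrane, was 0.30 higher (SE 0.08, adjusted p = 0.0129; 0.25 without LF32, adjusted p = 0.0742). Of 15 measured genes of the EGF list, 4 rose and none fell, with a median difference of 0.14 against 0.01 for all genes, and 2 rose without LF32, Ereg and Tgfa. With the beta-actin covariate the difference of Ereg was 1.64 and passed (adjusted p = 0.00627), and that of Tgfa was 0.86 and did not (adjusted p = 0.111).

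Proteases of the squamous surface and the inhibitors that restrain them were the list with the largest count of increases. Of 25 measured members, 10 rose and 1 fell, with a median of 0.33, and without LF32 6 rose and 1 fell, with a median of 0.18 against −0.01 for all genes. The median was 0.12 with the smooth muscle mean of each array as a covariate. The list mean was 8.67 to 9.12 on the ZS arrays and 9.24 to 9.56 on the ZD arrays, with no overlap. This was not particular to the list. The means of the cornified envelope, EGF, p53, clock, metalloenzyme, and hypoxia and glycolysis lists did not overlap either. Klk10, a secreted kallikrein, read 10.01, 9.31, 9.03 and 10.25 against 10.43 to 11.59, with a median of 11.13. It was higher on every ZD array and rose by 1.43 (SE 0.31, adjusted p = 0.00192; 1.23 without LF32, adjusted p = 0.0173), but did not pass with the smooth muscle mean of each array as a covariate.

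Serpins trap proteases inside and around keratinocytes. Of 7 measured on this list, 4 rose and none fell, and the 4 also passed without LF32. They were Serpinb2 and the 3 described next. Serpinb11 read 9.93, 9.71, 9.19 and 10.27 against 10.28 to 11.10, with a median of 10.85, and rose by 0.99 (SE 0.17, adjusted p = 0.00019; 0.79 without LF32, adjusted p = 0.00218). Serpinb12 rose by 0.47 (SE 0.09, adjusted p = 0.00102; 0.39 without LF32, adjusted p = 0.0107) from values of 12.35 to 12.80 to values of 12.84 to 13.27. Serpinb7 read 6.29, 5.97, 5.46 and 6.43 against 7.05 to 8.00, with a median of 7.49, and rose by 1.48 (SE 0.34, adjusted p = 0.00311; 1.28 without LF32, adjusted p = 0.0239). Serpinb11 and Serpinb12 passed with the beta-actin covariate and Serpinb7 did not (1.56, adjusted p = 0.079). The member that fell was Plaur, the urokinase receptor, at 4.56, 4.48, 5.02 and 4.92 against 3.66 to 4.53, which differed by −0.63 (SE 0.12, adjusted p = 0.000414; −0.53 without LF32, adjusted p = 0.00461) and by −0.15 with that covariate (adjusted p = 0.534).

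Genes of the cornified envelope, the cross-linked protein shell of the outermost squamous cells, leaned the same way by smaller amounts. Of 29 measured members, 8 rose and none fell, with a median of 0.22, and 4 rose without LF32. Klf4, a transcription factor of barrier formation, read 11.77, 11.82, 11.35 and 11.99 against 12.18 to 12.52, with a median of 12.39. All ZD values lay above all ZS values, and Klf4 rose by 0.63 (SE 0.10, adjusted p = 7.65e-05; 0.50 without LF32, adjusted p = 0.000689). The envelope precursor Sprr1a rose by 0.36 (SE 0.07, adjusted p = 0.000582; 0.30 without LF32, adjusted p = 0.00621). Dermokine (Dmkn), a secreted suprabasal protein, rose by 0.31 (SE 0.06, adjusted p = 0.000323; 0.24 without LF32, adjusted p = 0.00332). Spink5, an inhibitor of kallikreins, rose by 0.53 (SE 0.13, adjusted p = 0.00397; 0.39 without LF32, adjusted p = 0.0402), and it did not pass with the beta-actin covariate (0.61, adjusted p = 0.062).

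The basal and stress keratin list showed no such lean, with 1 of 21 measured members higher and 2 lower and a median of −0.07, and without LF32 none higher and 1 lower. Krt14, the basal keratin, differed by −0.15 (adjusted p = 0.624) and Krt13 by −0.04 (adjusted p = 0.497). Krt6c, a keratin of stressed epithelium, read 9.90, 8.81, 7.61 and 10.23 against 9.86 to 11.68, so the diets overlapped, and its difference of 1.54 passed (adjusted p = 0.0407) but not without LF32 (1.03, adjusted p = 0.244). Krt17, another stress keratin, was 0.77 higher (SE 0.62, adjusted p = 0.402), with ZD values from 7.83 to 10.09 around ZS values of 7.50 to 8.23. Integrin beta 4 (Itgb4), which anchors basal cells to the matrix, read 10.06, 9.19, 9.63 and 9.69 against 8.58 to 9.29 and fell by 0.62 (SE 0.15, adjusted p = 0.00476; −0.62 without LF32, adjusted p = 0.0165). Itgb4 did not pass with the beta-actin covariate (−0.73, adjusted p = 0.0587).

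Most proliferation genes had positive differences, and 1 passed. Of 38 measured cell cycle and replication genes, 33 were above 0 with a median of 0.59, which was 0.48 without LF32 and 0.42 to 0.77 over all alternatives run. That 1 was the mitotic motor Kif11 (1.07, SE 0.33, adjusted p = 0.0207), and none passed without LF32 (0.90 for Kif11, adjusted p = 0.104). Mki67, the marker of cycling cells, read 8.45, 7.70, 7.74 and 8.46 on the ZS arrays and 8.34 to 10.14 on the ZD arrays, a difference of 0.90 (SE 0.44, adjusted p = 0.147). The ZD array LF38 had the highest mean of this list, 8.92, and the other ZD arrays read 7.53 to 7.89.

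Damage and stress response genes included some of the larger increases. Gadd45a, which is induced by DNA damage and slows the cell cycle, read 7.08, 7.66, 7.15 and 7.40 against 8.14 to 9.89, with a median of 8.69. The groups were apart, and Gadd45a rose by 1.51 (SE 0.33, adjusted p = 0.00183; 1.45 without LF32, adjusted p = 0.0102). Its relative Gadd45b rose by 0.95 (SE 0.16, adjusted p = 0.000146; 0.87 without LF32), from 7.78 to 8.29 on the ZS arrays to 8.74 to 9.34 on the ZD arrays. Sesn2, a sestrin that restrains growth signalling under stress, rose by 0.44 (SE 0.08, adjusted p = 0.000323; 0.36 without LF32, adjusted p = 0.00375), and Xpc, which recognizes damaged DNA for repair, fell by 0.52 (SE 0.12, adjusted p = 0.00231; −0.46 without LF32, adjusted p = 0.0181). Of 22 measured p53 and damage response genes, 7 rose and 2 fell with a median of 0.20, and 5 rose and 2 fell without LF32. These 4 genes also passed with the beta-actin covariate.

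Immediate early genes, which cells transcribe within minutes of a growth signal, had 7 increases and 1 decrease among 28 measured, with a median of 0.26, and 4 increases and 1 decrease without LF32. Junb, a subunit of the AP-1 transcription factor, read 8.38, 8.68, 8.38 and 8.54 against 9.02 to 9.74, with a median of 9.42. It rose by 0.89 (SE 0.13, adjusted p = 2.94e-05; 0.85 without LF32, adjusted p = 0.000317). Klf6 rose by 0.53 (SE 0.11, adjusted p = 0.00167; 0.48 without LF32, adjusted p = 0.0125) and Ier5 by 0.46 (SE 0.11, adjusted p = 0.00298; 0.39 without LF32, adjusted p = 0.0239). Egr2, a zinc-finger transcription factor, read 6.72, 6.12, 6.01 and 6.21 against 7.09 to 7.59, with a median of 7.22. Egr2 was higher on each ZD array than on any ZS array and rose by 1.02 (SE 0.16, adjusted p = 9.02e-05; 0.94 without LF32, adjusted p = 0.000978). A further Egr2 probe set differed by 0.05.

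The promoter of Egr2 is shown because immediate early genes are known for serum response elements, to which serum response factor binds. It is the 250 bases before the transcription start, at chr20:21054442-21054691 on the minus strand of GRCr8 as RefSeq gives it, with a match to the CArG box, the core of such an element, in capitals.
Egr2: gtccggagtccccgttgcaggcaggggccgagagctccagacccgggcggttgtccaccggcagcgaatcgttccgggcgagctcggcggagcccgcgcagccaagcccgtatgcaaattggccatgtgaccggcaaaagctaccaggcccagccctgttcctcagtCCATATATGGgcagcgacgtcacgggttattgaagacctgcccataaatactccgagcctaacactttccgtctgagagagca
The match covers bases −83 to −74 from the start. It reads CCATATATGG, which is the same on both strands. A CArG box, searched on both strands, occurs in 501 of 33469 promoters of that length (1.5%), and in 5 of the 21 entries found for the 31 listed immediate early genes (23.8%). A match of letters is a description of the sequence and not a measured binding site.

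Enzymes of cholesterol synthesis and their regulator formed another group of increases. Insig1, which holds the sterol sensor in the endoplasmic reticulum, read 8.74, 8.51, 8.43 and 8.94 against 9.61 to 10.44, with a median of 9.71. All ZD arrays exceeded all ZS arrays, and Insig1 rose by 1.22 (SE 0.19, adjusted p = 7.54e-05; 1.15 without LF32, adjusted p = 0.000774). The sterol demethylase Cyp51 rose by 0.72 (SE 0.13, adjusted p = 0.000246; 0.53 without LF32, adjusted p = 0.00171), from 9.94 to 10.88 on the ZS arrays to 11.00 to 11.33 on the ZD arrays. The methyl sterol oxidase Msmo1 rose by 0.60 (SE 0.12, adjusted p = 0.000614; 0.49 without LF32, adjusted p = 0.00682). Squalene epoxidase (Sqle) rose by 0.71 (SE 0.15, adjusted p = 0.00114; 0.52 without LF32, adjusted p = 0.0119), with ZS values up to 10.58 overlapping ZD values from 10.49. Of 26 measured genes of cholesterol and fatty acid synthesis, 6 rose and 3 fell with a median of 0.27, and without LF32 5 rose and 1 fell with a median of 0.16. These 4 genes passed with the beta-actin covariate as well.

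The Insig1 promoter is shown because the sterol response acts through SREBP and NF-Y elements. Its 250 bases lie at chr4:8057770-8058019 on the minus strand of GRCr8, from RefSeq, with a match to CACGTG and a match to CCAAT, read on the other strand as ATTGG, in capitals.
Insig1: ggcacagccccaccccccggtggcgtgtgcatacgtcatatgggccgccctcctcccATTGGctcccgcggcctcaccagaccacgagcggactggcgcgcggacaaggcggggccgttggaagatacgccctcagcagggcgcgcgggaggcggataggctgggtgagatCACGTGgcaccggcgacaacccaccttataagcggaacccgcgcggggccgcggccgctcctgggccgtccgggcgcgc
CACGTG covers bases −79 to −74 and ATTGG bases −193 to −189. Both are matches of letters and not measured binding sites, and whether CACGTG acts as an SREBP element was not tested. On both strands CACGTG occurs in 1872 of 33469 promoters (5.59%) and in 3 of 25 promoters of the lipid synthesis list (12%). CCAAT occurs in 11385 of them (34%) and in 19 of 25 promoters of the lipid synthesis list (76%), which had entries for 24 of its 34 symbols. The other letters searched, TCACNCCAC, occur in 326 promoters (0.974%) and in 0 of the 25, which include that of Insig1.

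**Figure D4:**
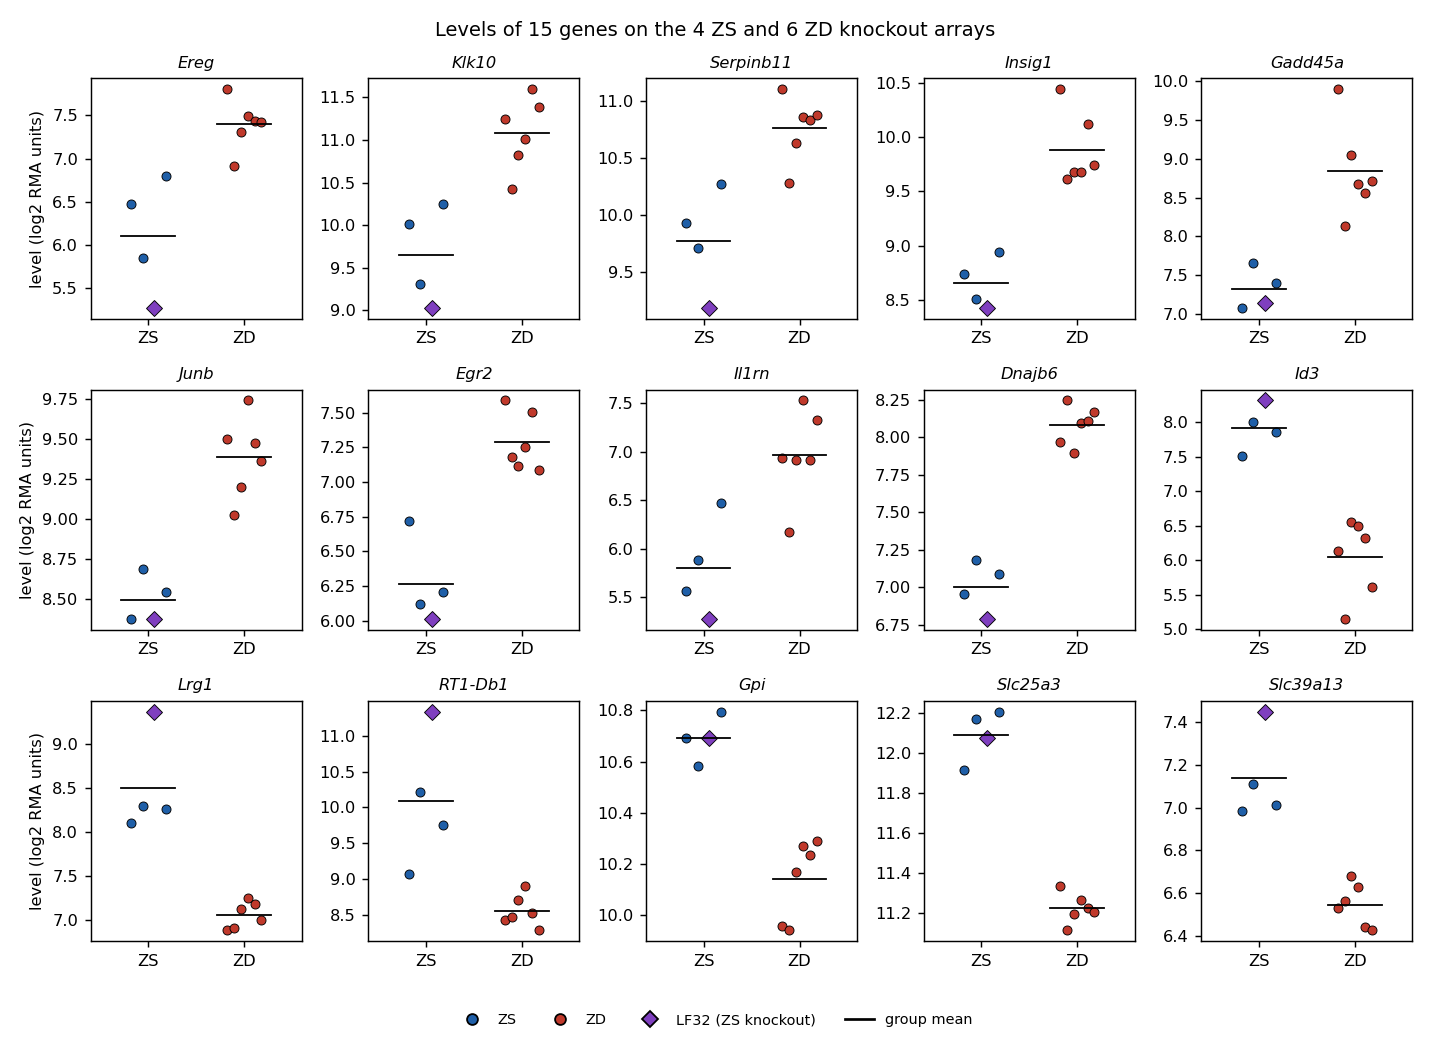
Levels (log2 RMA units) of 15 genes on the 4 ZS and 6 ZD knockout arrays, with a point per array, LF32 as a diamond and lines at group means. The ZD and ZS points are apart for all of these genes except Il1rn, whose highest ZS value of 6.47 exceeds the lowest ZD value of 6.18.

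Several of the largest increases belonged to no such list. Rps6ka6, a kinase downstream of Ras signalling, read 7.05, 6.85, 6.35 and 6.96 against 7.66 to 8.52 and rose by 1.26 (SE 0.19, adjusted p = 5.57e-05; 1.11 without LF32). Oncomodulin (Ocm), a calcium-binding protein, read 9.06, 8.66, 8.40 and 9.42 against 9.76 to 10.68 and rose by 1.39 (SE 0.25, adjusted p = 0.000282; 1.23 without LF32). Both groups of values were apart for each, and both genes passed with the beta-actin covariate. The phospholipase and acyltransferase Plaat5 rose by 1.55 (SE 0.36, adjusted p = 0.00311; 1.24 without LF32, adjusted p = 0.0293), the adhesion molecule Tmigd1 by 1.47 (SE 0.37, adjusted p = 0.00585; 1.29 without LF32, adjusted p = 0.0366), and the translation repressor Eif4ebp2 by 1.22 (SE 0.20, adjusted p = 0.000109; 0.89 without LF32, adjusted p = 0.000467). With that covariate their differences of 1.19, 1.36 and 0.92 did not pass (adjusted p = 0.205, 0.163 and 0.0614). Acot1, a fatty acyl-CoA thioesterase, rose by 1.63 (SE 0.51, adjusted p = 0.0239) with LF32, but did not pass without it (1.41, adjusted p = 0.108).

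Among 26 measured genes of zinc transport and metallothioneins, 4 rose and 4 fell (15.4% each, next to 9.47% and 12% of all genes) with a median of 0.08. Without LF32 2 rose and 1 fell (7.69% and 3.85%, next to 4.45% and 6.56%), so the shares lay on both sides of those of all genes. Slc39a1, an importer at the cell surface, read 10.97, 10.90, 10.76 and 10.79 against 11.16 to 11.38 and rose by 0.42 (SE 0.06, adjusted p = 3.79e-05; 0.39 without LF32). Slc39a13, an importer of internal membranes, read 6.98, 7.11, 7.45 and 7.01 against 6.43 to 6.68 and fell by 0.59 (SE 0.09, adjusted p = 5.96e-05; −0.49 without LF32). The diets were apart for both genes. Slc30a7, which loads zinc into the Golgi, rose by 0.58 (SE 0.13, adjusted p = 0.00184; 0.43 without LF32, adjusted p = 0.0195), and Slc30a4 by 0.45 (SE 0.12, adjusted p = 0.0112; 0.33 without LF32, adjusted p = 0.0908).

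The importers Slc39a4 and Slc39a10 and the metallothioneins Mt1 and Mt2A did not pass. Slc39a4, the intestinal importer, was 0.16 higher (SE 0.11, adjusted p = 0.323). Slc39a10 read 8.90, 8.76, 8.65 and 8.74 against 9.18 to 10.29, and its difference of 0.71 had an adjusted p of 0.0669 even though the groups were apart, with LF34 highest. The metallothioneins, which bind zinc and fall with it in many cells, differed by 0.15 for Mt1 (SE 0.17, adjusted p = 0.587) and −0.24 for Mt2A (SE 0.28, adjusted p = 0.591). Among 26 zinc-dependent metalloenzymes 2 rose and 8 fell with a median of −0.02, but without LF32 none rose and 1 fell.

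Genes of antioxidant and xenobiotic defence split. Slc7a11, the cystine importer, read 7.45, 7.68, 7.49 and 8.11 against 8.26 to 9.03 and rose by 0.83 (SE 0.20, adjusted p = 0.00385; 0.76 without LF32, adjusted p = 0.0223). The efflux pump Abcc4 rose by 0.96 (SE 0.18, adjusted p = 0.000529; 0.79 without LF32, adjusted p = 0.00589), and malic enzyme (Me1), a source of NADPH, by 0.49 (SE 0.10, adjusted p = 0.00141; 0.34 without LF32, adjusted p = 0.0129). Epoxide hydrolase (Ephx1) read 8.14, 8.79, 8.63 and 8.49 against 7.20 to 7.76 and fell by 1.04 (SE 0.15, adjusted p = 2.56e-05; −1.0 without LF32). The cytochrome Cyp1b1 fell by 1.10 (SE 0.24, adjusted p = 0.00206; −1.11 without LF32, adjusted p = 0.00802), with ZS values of 8.67 to 8.86 above ZD values of 7.23 to 8.13. Of 31 measured members of the Nrf2 and xenobiotic list, 5 rose and 4 fell (16.1% and 12.9%) with a median of 0.01. The shares of all genes were 9.47% and 12%. Without LF32 4 rose and 3 fell (12.9% and 9.68%, next to 4.45% and 6.56%). Slc7a11 and Ephx1 passed with the beta-actin covariate (adjusted p = 0.0344 and 0.0211), while Abcc4, Me1 and Cyp1b1 did not (0.0851, 0.0795 and 0.0831). The differences of these 3 with the covariate were 0.80, 0.46 and −1.09.

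In the integrated stress and unfolded protein response, 3 of 30 measured genes rose and 1 fell, with a median of −0.05, and 2 rose and 1 fell without LF32. The 1 that fell was Slc3a2, the heavy chain that pairs with Slc7a11, by 0.49 (SE 0.09, adjusted p = 0.000484; −0.53 without LF32). Its ZS values of 10.09 to 10.37 lay above its ZD values of 9.63 to 9.84, so the partners of the cystine importer moved in opposite directions.

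Clock genes showed 1 increase and 5 decreases among 20 measured, with a median of −0.36, and 1 increase and 2 decreases without LF32. Clock, the activating subunit, read 10.12, 9.93, 9.51 and 10.03 against 10.29 to 10.75 and rose by 0.61 (SE 0.10, adjusted p = 0.000113; 0.48 without LF32). Further Clock probe sets differed by 0.94, 0.16 and 0.60. Genes that the activator drives were lower. Nr1d2, a repressor of the clock loop, fell by 0.74 (SE 0.19, adjusted p = 0.00745; −0.67 without LF32, adjusted p = 0.0392), the factor Tef by 0.63 (SE 0.18, adjusted p = 0.0137; −0.61 without LF32, adjusted p = 0.0453) and Dbp by 1.37 (SE 0.44, adjusted p = 0.0274; −1.26 without LF32, adjusted p = 0.0978). With the beta-actin covariate Nr1d2, Tef and Dbp differed by −0.74, −0.56 and −1.26 and did not pass (adjusted p = 0.141, 0.245 and 0.291), and the time of day of sampling is not given in the sources used here.

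Published targets of miR-31 were examined on a background without the microRNA. Of 42 measured, 5 rose and 3 fell (11.9% and 7.14%, next to 9.47% and 12% of all genes) with a median of −0.01. Without LF32 2 rose (4.76%, next to 4.45%), Clock and the phosphatase subunit Ppp2r2a. Ppp2r2a read 9.88, 9.94, 9.72 and 10.06 against 9.90 to 10.51 and rose by 0.41 (SE 0.10, adjusted p = 0.00367; 0.35 without LF32, adjusted p = 0.0284). The phosphatase Ppp6c was 0.27 higher (SE 0.08, adjusted p = 0.0154; 0.24 without LF32, adjusted p = 0.0736) and Rhobtb1 0.66 lower (SE 0.19, adjusted p = 0.0161; −0.56 without LF32, adjusted p = 0.0886). Stk40, a repressor of NF-kB signalling, differed by −0.16 (SE 0.08, adjusted p = 0.158), and Egln3, an oxygen-sensing hydroxylase, by −0.09 (SE 0.23, adjusted p = 0.834).

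Id3, an inhibitor of basic helix-loop-helix transcription factors, had one of the largest decreases. It read 7.50, 8.01, 8.31 and 7.85 on the ZS arrays and 5.15 to 6.55 on the ZD arrays, with a median of 6.23. Every ZD array was below every ZS array, and Id3 fell by 1.88 (SE 0.25, adjusted p = 1.46e-05; −1.75 without LF32, adjusted p = 0.000195). With the beta-actin covariate its adjusted p was 0.0431. Lrg1, a secreted glycoprotein that acts on blood vessels, read 8.10, 8.30, 9.37 and 8.26 against 6.88 to 7.25, with a median of 7.06. It fell by 1.45 (SE 0.22, adjusted p = 4.36e-05; −1.16 without LF32, adjusted p = 0.000374), and the groups were apart also without LF32.

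P2rx1, an ATP-gated channel of muscle and blood cells, read 8.14, 6.79, 7.86 and 6.52 against 5.40 to 6.36 and fell by 1.52 (SE 0.22, adjusted p = 3.34e-05; −1.35 without LF32). Jph2, which couples membranes in muscle cells, read 8.45, 8.48, 9.11 and 8.23 against 6.49 to 8.05 and fell by 1.44 (SE 0.24, adjusted p = 0.000126; −1.26 without LF32). Cd36, a fatty acid receptor of adipocytes, vessels and macrophages, read 7.59, 7.78, 8.60 and 8.02 against 5.44 to 6.83 and fell by 1.79 (SE 0.32, adjusted p = 0.000323; −1.59 without LF32). All of these groups of values were apart. P2rx1 and Jph2 passed with the beta-actin covariate and Cd36 did not (−1.20, adjusted p = 0.137). The scavenger receptor Stab1 fell by 1.58 (SE 0.32, adjusted p = 0.000998; −1.26 without LF32, adjusted p = 0.0111) and the phosphatase Ptp4a3 by 1.46 (SE 0.34, adjusted p = 0.00346; −1.25 without LF32, adjusted p = 0.0265). With that covariate Ptp4a3 differed by −1.71 (adjusted p = 0.0507).

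Genes of macrophages and of antigen presentation were lower on the ZD diet. Of 27 measured, none rose and 15 fell with a median of −0.79, and without LF32 9 fell with a median of −0.40. RT1-Db1, a chain of the class II molecule that presents peptides to T cells, read 9.08, 10.21, 11.34 and 9.75 against 8.29 to 8.91, with a median of 8.50. The groups were apart with LF32 highest, and RT1-Db1 fell by 1.54 (SE 0.25, adjusted p = 0.000136; −1.12 without LF32, adjusted p = 0.000652). RT1-Ba, a further class II chain, fell by 1.50 (SE 0.26, adjusted p = 0.000218; −1.15 without LF32), and its other probe sets differed by −0.25, −0.05 and −0.08. The complement subunits C1qc and C1qb, made mainly by macrophages, fell by 1.44 (SE 0.26, adjusted p = 0.000387; −1.02 without LF32) and by 1.50 (SE 0.32, adjusted p = 0.00158; −1.05 without LF32). The 4 genes differed, when the beta-actin covariate was fitted, by −1.25, −0.87, −1.14 and −0.90, and none passed (adjusted p = 0.0531 to 0.269). In bulk tissue, fewer cells of a type and less RNA per cell cannot be told apart.

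T and B cell genes depended on LF32. Of 23 measured, none rose and 7 fell with a median of −0.57, and without LF32 1 fell with a median of −0.10. That 1 was Ccl21, a chemokine of lymphatic vessels that attracts T cells, which is made by vessel cells rather than lymphocytes. It read 10.02, 11.19, 12.12 and 10.87 against 8.81 to 9.68 and fell by 1.85 (SE 0.33, adjusted p = 0.000291; −1.49 without LF32, adjusted p = 0.00346; −1.36 with the beta-actin covariate, adjusted p = 0.104). Cd3e, a subunit of the T cell receptor complex, read 5.82, 6.68, 8.65 and 5.91 against 5.51 to 6.14, and its difference of −0.91 (adjusted p = 0.0387) was −0.28 without LF32 (adjusted p = 0.334). The chemokine Ccl5 read 5.76, 8.13, 9.05 and 6.00 against 5.86 to 6.31, and differed by −1.10 (adjusted p = 0.0311; −0.49 without LF32, adjusted p = 0.281), which did not pass without LF31, LF38 or LF39 either. Among 15 measured neutrophil and mast cell genes 1 rose and 3 fell with a median of −0.19, and none rose and 1 fell without LF32.

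Interferon response genes also fell where they passed. Of 30 measured, none rose and 9 fell with a median of −0.43, and 5 fell without LF32 with a median of −0.28. Stat2, a transducer of the type I interferon signal, read 7.67, 7.70, 8.17 and 7.83 against 7.28 to 7.65 and fell by 0.42 (SE 0.09, adjusted p = 0.00163; −0.31 without LF32). Ifi27 fell by 0.54 (SE 0.12, adjusted p = 0.00267; −0.43 without LF32). The antiviral GTPase Mx1 read 5.14, 5.03, 6.64 and 6.82 against 4.60 to 5.29, so that LF32 and LF33 alone stood above the ZD range, and it fell by 1.04 (SE 0.26, adjusted p = 0.00508; −0.80 without LF32, adjusted p = 0.0481). Irf1 fell by 1.02 (SE 0.26, adjusted p = 0.00571; −0.58 without LF32, adjusted p = 0.0472). Stat2 and Ifi27 passed with the beta-actin covariate and Mx1 and Irf1, at −0.79 and −1.02, did not (adjusted p = 0.249 and 0.129).

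Inflammatory genes as a list did not move together. Of 35 measured NF-kB and inflammation genes, 2 rose and 3 fell (5.71% and 8.57%, next to 9.47% and 12% of all genes) with a median of 0.05. Without LF32 1 rose and 1 fell. Il1rn, the antagonist of the interleukin-1 receptor, read 5.57, 5.89, 5.28 and 6.47 against 6.18 to 7.53, with a median of 6.93. The diets overlapped through LF33 and a single ZD array, and Il1rn rose by 1.16 (SE 0.20, adjusted p = 0.000194; 0.99 without LF32, adjusted p = 0.00244), with an adjusted p of 3.84e-05 with the beta-actin covariate. Nfkb1, a subunit of NF-kB, fell by 0.36 (SE 0.09, adjusted p = 0.00401; −0.29 without LF32, adjusted p = 0.0338; −0.23 with that covariate, adjusted p = 0.308). The adhesion molecules Icam1 and Sele, by which vessels catch leukocytes, fell by 0.52 (adjusted p = 0.0177) and by 0.87 (adjusted p = 0.0236) with LF32, but did not pass without it (−0.27 and −0.49, adjusted p = 0.168 and 0.207).

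S100a8 and S100a9, the calprotectin genes of inflamed epithelium and neutrophils, varied widely on both diets. S100a8 read 6.66, 5.73, 3.56 and 9.30 against 6.14 to 10.50, a difference of 2.12 (SE 1.00, adjusted p = 0.133). S100a9 read 7.24, 6.50, 4.22 and 9.27 against 5.97 to 10.56, a difference of 1.09 (SE 1.15, adjusted p = 0.539). The ZS array LF33 lay within the upper part of the ZD range for both genes. Ptgs2, the inducible cyclooxygenase, read 3.05 to 3.21 on the ZS arrays and 2.79 to 4.14 on the ZD arrays and differed by 0.25 (SE 0.70, adjusted p = 0.84).

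In the prostaglandin and leukotriene pathway 1 of 24 measured genes rose and 3 fell, with a median of −0.05. These are 4.17% and 12.5%, next to 9.47% and 12% of all genes. Without LF32 1 rose and 2 fell. Ptgs1, the constitutive cyclooxygenase, read 9.11, 8.61, 9.09 and 8.92 against 7.56 to 8.46 and fell by 0.84 (SE 0.21, adjusted p = 0.0064; −0.79 without LF32, adjusted p = 0.0306), while a further Ptgs1 probe set differed by 0.21. Alox5, which begins leukotriene synthesis, read 5.94, 5.71, 6.71 and 6.00 against 5.20 to 5.43 and fell by 0.75 (SE 0.12, adjusted p = 0.000109; −0.55 without LF32, adjusted p = 0.000374). Alox5 passed with the beta-actin covariate and Ptgs1 did not (−0.91, adjusted p = 0.103).

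Stromal genes were lower on the ZD diet, with fewer calls once LF32 was left out. Of 36 measured fibroblast and matrix genes none rose and 16 fell with a median of −0.70, and 3 fell without LF32 with a median of −0.40. Col6a2, a chain of a microfibrillar collagen, read 9.02, 8.43, 9.78 and 9.18 against 7.66 to 8.28, with a median of 7.85. The groups were apart, and Col6a2 fell by 1.20 (SE 0.18, adjusted p = 4.74e-05; −0.98 without LF32, adjusted p = 0.00048). Col5a1, a chain of a fibril-forming collagen, fell by 0.82 (SE 0.15, adjusted p = 0.000357; −0.59 without LF32), and the collagen chaperone Serpinh1 by 0.73 (SE 0.16, adjusted p = 0.0022; −0.59 without LF32). Col6a2 passed with the beta-actin covariate (adjusted p = 0.0329) and Col5a1 and Serpinh1, at −0.72 and −0.72, did not (adjusted p = 0.0598 and 0.0906).

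Of 23 measured endothelial genes none rose and 9 fell with a median of −0.49, and 3 fell without LF32 with a median of −0.25. The median was −0.21 with the smooth muscle mean of each array as a covariate. Egfl7, secreted by growing vessels, read 7.98, 8.03, 8.35 and 8.08 against 7.25 to 7.60 and fell by 0.61 (SE 0.10, adjusted p = 7.65e-05; −0.53 without LF32). The junction protein Esam fell by 0.91 (SE 0.18, adjusted p = 0.00102; −0.73 without LF32) and the receptor Tie1 by 0.85 (SE 0.19, adjusted p = 0.00261; −0.63 without LF32). Egfl7 and Esam passed with the beta-actin covariate and Tie1 did not (−0.94, adjusted p = 0.0559).

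Smooth muscle genes were lower as well. Of 20 measured smooth muscle genes, none rose and 10 fell with a median of −0.99, and 5 fell without LF32 with a median of −0.81. Smoothelin (Smtn), a protein of contractile smooth muscle, read 9.41, 9.13, 9.89 and 9.01 against 7.15 to 8.94 and fell by 1.36 (SE 0.30, adjusted p = 0.00231; −1.18 without LF32, adjusted p = 0.0188). Csrp1 fell by 0.94 (SE 0.22, adjusted p = 0.00363; −0.79 without LF32, adjusted p = 0.0291) and the filament protein synemin (Synm) by 1.36 (SE 0.36, adjusted p = 0.00923; −1.25 without LF32, adjusted p = 0.0446), though further Synm probe sets differed by −0.04 and 0.00. Myl9, the regulatory light chain of myosin, read 12.06, 12.12, 12.61 and 11.82 against 9.46 to 11.42 and fell by 1.85 (SE 0.52, adjusted p = 0.0129; −1.70 without LF32, adjusted p = 0.0574). Pdlim7 fell by 1.01 (adjusted p = 0.00612; −0.80 without LF32, adjusted p = 0.0513), smooth muscle gamma actin (Actg2) by 1.44 (adjusted p = 0.0456; −1.26 without LF32, adjusted p = 0.16) and desmin (Des) by 1.24 (adjusted p = 0.0304; −1.03 without LF32, adjusted p = 0.141). All 7 of these differences were larger in size with the beta-actin covariate, and 1 passed, that of Smtn (−1.66, adjusted p = 0.0329). Those of Myl9, Synm, Actg2, Des, Pdlim7 and Csrp1 were −2.45, −1.80, −1.83, −1.41, −1.16 and −0.98 (adjusted p = 0.0515 to 0.192). The ZD array LF36 kept a smooth muscle mean of 10.23, within the ZS range, and the other ZD arrays read 8.85 to 9.64.

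Of 30 measured skeletal muscle genes none rose and 2 fell, Myh1 by 0.41 (SE 0.10, adjusted p = 0.00456; −0.37 without LF32, adjusted p = 0.0293) and Des, with a median of −0.67, and without LF32 1 fell with a median of −0.48. The share that fell was 6.67%, next to 12% of all genes, or 3.33% next to 6.56% without LF32. With the smooth muscle mean of each array as a covariate the median was −0.25. No gene passed on the lists of Schwann and nerve cells (0 of 14, median −0.01) and of mucous, gastric and thyroid secretory genes (0 of 18, median −0.02), with or without LF32. Of 7 red blood cell genes 1 rose with a median of 0.03, and none passed without LF32. Of 15 adipocyte genes 3 fell with a median of −0.21, Cd36 among them, and 2 fell without LF32.

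Glycolysis and hypoxia genes had 6 decreases and no increase among 32 measured, with a median of −0.14, and 4 decreases without LF32 with a median of −0.13. The list mean was 8.82 to 8.91 on the ZS arrays and 8.66 to 8.72 on the ZD arrays, with no overlap and LF32 inside the range of the other ZS arrays. Glucose-6-phosphate isomerase (Gpi) read 10.69, 10.58, 10.69 and 10.80 against 9.94 to 10.29 and fell by 0.55 (SE 0.10, adjusted p = 0.000481; −0.55 without LF32). The phosphofructokinase Pfkl fell by 0.66 (SE 0.14, adjusted p = 0.00119; −0.66 without LF32) and the collagen prolyl hydroxylase P4ha2 by 0.78 (SE 0.12, adjusted p = 3.99e-05; −0.69 without LF32). Pfkl and P4ha2 passed with the beta-actin covariate and Gpi did not (−0.38, adjusted p = 0.137).

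The retinoid list, enzymes and carriers of vitamin A, had 3 increases and 2 decreases among 28 measured, with a median of −0.09. These are 10.7% and 7.14%, next to 9.47% and 12% of all genes. Without LF32 the list had 1 of each. Rdh12, a retinol dehydrogenase, read 9.88, 9.96, 9.40 and 10.25 against 10.36 to 10.76 and rose by 0.68 (SE 0.11, adjusted p = 0.000139; 0.52 without LF32, adjusted p = 0.00109). The aldehyde oxidase Aox1 fell by 1.27 (SE 0.29, adjusted p = 0.00258; −0.89 without LF32), and differed by −1.34 with the beta-actin covariate (adjusted p = 0.0715). Among 29 carbonic anhydrase and ion transport genes, 1 rose and 2 fell with a median of 0.06, and none rose and 2 fell without LF32. Car11, a relative of the carbonic anhydrases, read 7.81, 7.67, 8.44 and 7.83 against 7.01 to 7.49 and fell by 0.77 (SE 0.11, adjusted p = 2.12e-05; −0.60 without LF32, adjusted p = 7.29e-05). Fxyd5, a regulator of the sodium pump, fell by 1.08 (SE 0.23, adjusted p = 0.00172; −0.69 without LF32), and did not pass with the beta-actin covariate (−0.87, adjusted p = 0.151). Atp13a5, an ion pump, read 3.22 to 3.40 on the ZS arrays and 3.76 to 5.99 on the ZD arrays, and its difference of 1.51 (adjusted p = 0.0407) did not pass without any of LF30 to LF34 or LF37 to LF39.

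The smallest p-values included genes of basic cell function that stood on none of the lists. Dnajb6, a co-chaperone that keeps proteins from aggregating, read 6.95, 7.18, 6.79 and 7.09 on the ZS arrays and 7.90 to 8.24 on the ZD arrays, with a median of 8.10. It rose by 1.08 (SE 0.08, adjusted p = 6.4e-09; 1.01 without LF32, adjusted p = 1.01e-07). Slc25a3, the mitochondrial phosphate carrier, read 11.92, 12.17, 12.08 and 12.21 against 11.11 to 11.33 and fell by 0.87 (SE 0.08, adjusted p = 5.79e-08; −0.88 without LF32). Both passed with the beta-actin covariate (adjusted p = 8.52e-05 and 0.00101). The splicing protein Snrnp70 fell by 0.96 (SE 0.09, adjusted p = 5.79e-08; −0.93 without LF32) and the calpain subunit Capns1 by 1.22 (SE 0.12, adjusted p = 3.49e-07; −1.14 without LF32). The trafficking GTPase Rab14 rose by 0.99 (SE 0.10, adjusted p = 4.39e-07; 0.87 without LF32), but its further probe sets differed by 0.39, 0.16, −0.35 and −0.19, and its call was lost with the mean of all its probe sets. Snrnp70 and Capns1, like Serpinb2, Synm, Elf5, Fam3b, Cyp26b1 and Dbp, were chosen for naming after their values had been seen.

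Subunits of the mitochondrial respiratory chain had calls in both directions, and the counts hardly changed without LF32. Of 45 measured, 6 rose and 9 fell with a median of −0.02, and 5 rose and 9 fell without LF32. Cox5a, a subunit of cytochrome oxidase, read 6.80, 6.92, 6.37 and 7.0 against 7.55 to 8.05 and rose by 0.92 (SE 0.10, adjusted p = 1.6e-06; 0.79 without LF32). Sdha, the flavoprotein of succinate dehydrogenase, read 10.81, 10.71, 10.75 and 10.94 against 10.22 to 10.37 and fell by 0.49 (SE 0.06, adjusted p = 5.7e-06; −0.51 without LF32). Ndufs7 of complex I fell by 0.52 (SE 0.08, adjusted p = 4.54e-05; −0.52 without LF32) and Atp5f1a of the ATP synthase by 0.36 (SE 0.06, adjusted p = 0.000174; −0.38 without LF32). Cox5a, Sdha and Ndufs7 passed with the beta-actin covariate and Atp5f1a did not (−0.21, adjusted p = 0.149).

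A further question was how the response to diet in the knockouts compared with that in unedited rats, which share no arrays with them. In the unedited rats 1974 genes passed (13.9%; 6.94% higher and 6.95% lower). In all 608 genes passed in both genotypes, 549 in the same direction and 59 in opposite directions. The 549 made up 18% of the knockout calls and 27.8% of the unedited calls, with 298 higher and 251 lower on the ZD diet in both. The difference between the diet effects passed for 1193 genes (8.39%), 537 with the higher value in the knockouts (3.78%) and 656 with the lower (4.61%), and for 615 without LF32 (4.33%), 241 higher (1.7%) and 374 lower (2.63%). With the beta-actin covariate 147 genes passed, 133 of them among the 1193. The higher differences made up 45.0% of these calls, and 54.4% after median centring. The arrays of the 2 genotypes appear to have been normalized as separate sets, with array medians of 5.81 to 5.93 in the knockouts and 5.37 to 5.45 in the unedited rats, so only differences within a genotype are compared.

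**Figure D5:**
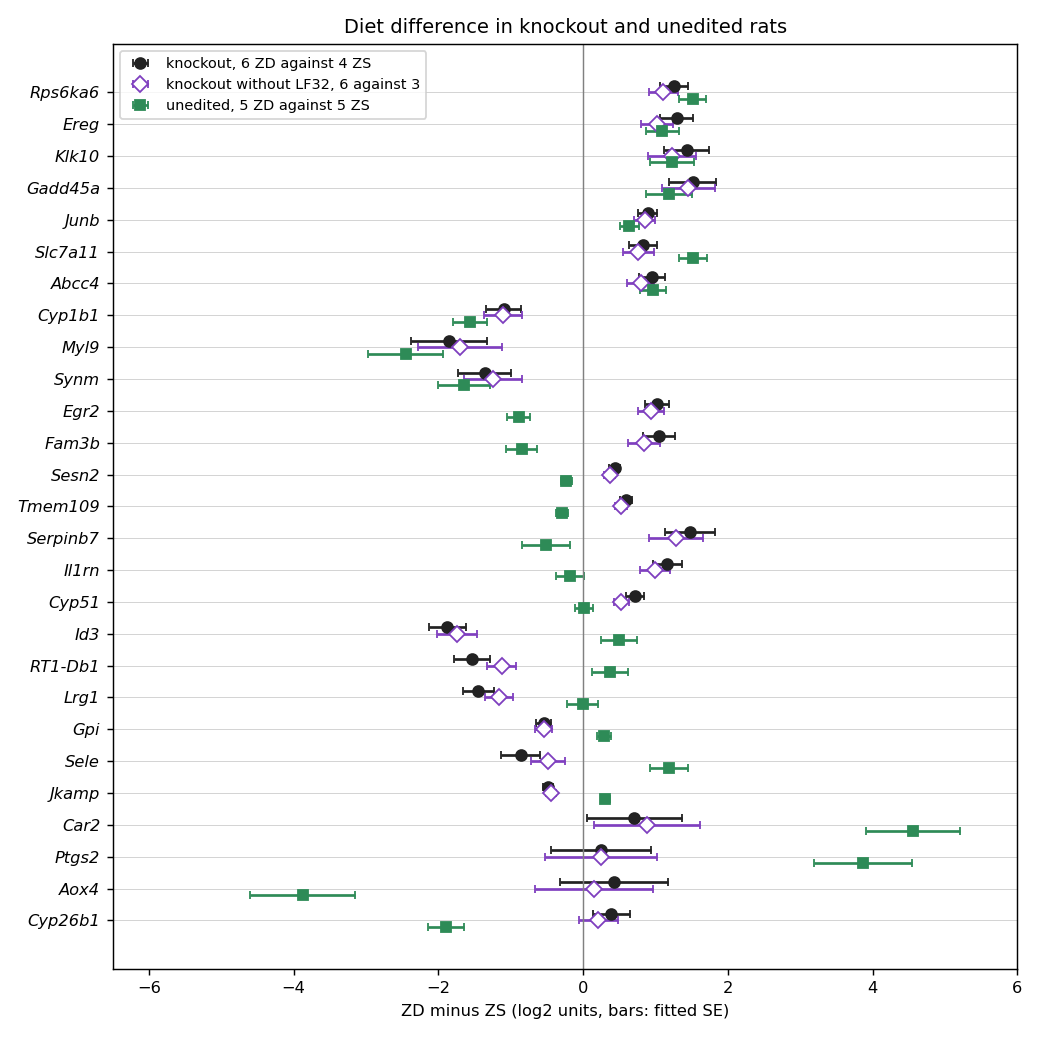
Diet difference (ZD minus ZS, log2 units) of 27 genes in knockout rats with all arrays, in knockout rats without LF32 and in unedited rats, with bars of 1 fitted SE. Ereg, Klk10, Gadd45a and Junb lie on the same side of 0 in both genotypes, Egr2, Fam3b, Sesn2, Tmem109 and Jkamp lie on opposite sides, and Car2, Ptgs2, Aox4 and Cyp26b1 lie far from 0 in the unedited rats alone.

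Among the genes described above, several passed in the same direction in both genotypes. Ereg rose by 1.29 in the knockouts and by 1.09 (SE 0.23, adjusted p = 0.00225) in the unedited rats. Rps6ka6 rose by 1.26 and 1.51, Klk10 by 1.43 and 1.22, Gadd45a by 1.51 and 1.19, Junb by 0.89 and 0.64, Slc7a11 by 0.83 and 1.52, and Abcc4 by 0.96 and 0.97. Cyp1b1 differed by −1.10 and −1.56, Myl9 by −1.85 and −2.46, and Synm by −1.36 and −1.65. The smooth muscle list had 10 decreases in the knockouts and 16 of 20 in the unedited rats, with medians of −0.99 and −1.50.

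Other genes went opposite ways with all arrays. Egr2 rose by 1.02 in the knockouts and fell by 0.89 (SE 0.16, adjusted p = 0.000683) in the unedited rats, a difference between genotypes of 1.92 (adjusted p = 2.28e-05; 1.83 without LF32; adjusted p = 0.00341 with the beta-actin covariate). Fam3b, a secreted cytokine-like protein, rose by 1.05 (SE 0.22, adjusted p = 0.00137) and fell by 0.85 (adjusted p = 0.00938), a difference of 1.90 (adjusted p = 0.000734). Sesn2 rose by 0.44 and fell by 0.23, a difference of 0.67 (adjusted p = 0.000826), and the membrane protein Tmem109 rose by 0.59 and fell by 0.29, a difference of 0.88 (adjusted p = 3.63e-05). Jkamp, a membrane protein of the ubiquitin system, fell by 0.49 and rose by 0.30, a difference of −0.79 (adjusted p = 1.73e-05), and the messenger RNA exporter Nxf1 fell by 0.63 and rose by 0.22, a difference of −0.86 (adjusted p = 3.63e-05). Elf5, an epithelial transcription factor, rose by 0.48 (adjusted p = 0.0295) and fell by 1.05 (adjusted p = 0.000104), a difference of 1.53 (adjusted p = 0.000205). Ppp6c rose by 0.27 with LF32 and fell by 0.33, a difference of 0.60 (adjusted p = 0.00211). The knockout rise of Elf5 was 0.28 without LF32 (adjusted p = 0.233) and 0.10 with the beta-actin covariate (adjusted p = 0.847). That of Ppp6c was 0.24 without LF32 (adjusted p = 0.0736) and 0.29 with the covariate (adjusted p = 0.167). Neither rise passed in those fits. All of the genotype differences in this group passed with the beta-actin covariate and without LF32.

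For other genes the knockouts changed and the unedited rats did not pass, with the difference itself past the threshold. Id3 differed by −1.88 and 0.50 (SE 0.25, adjusted p = 0.193), a difference of −2.37 (adjusted p = 0.000385). Il1rn differed by 1.16 and −0.18, a difference of 1.34 (adjusted p = 0.00448), and Eif4ebp2 by 1.22 and −0.50, a difference of 1.72 (adjusted p = 0.000679). Slc25a3 differed by −0.87 and 0.16, a difference of −1.03 (adjusted p = 6.71e-06), Dnajb6 by 1.08 and 0.22, a difference of 0.86 (adjusted p = 8.6e-05), and the transporter-like Nipal2 by −0.71 and 0.10, a difference of −0.80 (adjusted p = 3.63e-05). Capns1 and Snrnp70 gave differences of −1.27 (adjusted p = 8.6e-05) and −0.73 (adjusted p = 0.000826), and Egfl7 and Slc3a2 −0.68 (adjusted p = 0.00332) and −0.73 (adjusted p = 0.00137). These genotype differences passed with the beta-actin covariate and without LF32. Rab14 gave 1.17 (adjusted p = 2.28e-05), which was lost with the mean of all its probe sets.

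Further genotype differences passed without LF32 but not with the beta-actin covariate. They were 1.99 for Serpinb7 (adjusted p = 0.0121), 0.70 for Cyp51 (adjusted p = 0.015), 0.67 for Rdh12 (adjusted p = 0.0108) and 0.56 for Me1 (adjusted p = 0.0178). Lower in the knockouts were Lrg1 (−1.44, adjusted p = 0.00462), RT1-Db1 (−1.91, adjusted p = 0.00224), RT1-Ba (−1.59, adjusted p = 0.00876), C1qc (−1.56, adjusted p = 0.0105) and C1qb (−1.75, adjusted p = 0.0167). Ptgs1 (−1.22, adjusted p = 0.014), Fxyd5 (−1.52, adjusted p = 0.00571), Nfkb1 (−0.52, adjusted p = 0.00961), Gpi (−0.84, adjusted p = 0.0011), Pfkl (−0.83, adjusted p = 0.00831) and Sele (−2.05, adjusted p = 0.00211) followed. With all arrays Sele had opposite values, at −0.87 in the knockouts and 1.19 (SE 0.27, adjusted p = 0.00416) in the unedited rats. Its knockout value was −0.49 without LF32 and did not pass (adjusted p = 0.207). With the covariate these 15 genotype differences kept their direction, at 0.615 to 1.22 times the values given.

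By list, the counts of genotype differences were smaller without LF32 for most lists, and they stand next to 3.78% higher and 4.61% lower over all genes, or 1.7% and 2.63% without LF32. The macrophage genes had 15 of 27, all toward lower values in the knockouts, and 8 without LF32, with median diet differences of −0.79 in the knockouts and 0.26 in the unedited rats. The glycolysis and hypoxia list had 13 of 32, also all lower in the knockouts, and 9 without LF32. Of its genes 13 rose in the unedited rats (median 0.36) and 6 fell in the knockouts. Endothelial genes had 8 of 23 lower in the knockouts and 2 without LF32, and NF-kB genes 6 of 35 lower and 4 without LF32. The NF-kB list had 11 increases in the unedited rats, and 2 in the knockouts or 1 without LF32. The lipid synthesis list had 5 of 26 and the retinoid list 5 of 28, all toward higher values in the knockouts, and without LF32 they had 2 and 4. The integrated stress list had 10 increases in the unedited rats and 3 in the knockouts, with 5 of its 30 differences lower in the knockouts, and 5 without LF32.

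Some genes with a wide response in the unedited rats did not pass in the knockouts. Car2 encodes a carbonic anhydrase and rose by 4.56 (SE 0.65, adjusted p = 0.000101) in the unedited rats. In the knockouts it read 6.80, 6.93, 7.74 and 7.41 against 6.97 to 8.80, a difference of 0.71 (SE 0.66, adjusted p = 0.484), and the genotypes differed by −3.85 (adjusted p = 0.012). Ptgs2 rose by 3.87 (SE 0.68, adjusted p = 0.000612) and differed by 0.25 in the knockouts, a genotype difference of −3.62 (adjusted p = 0.0228). The aldehyde oxidase Aox4 fell by 3.88 (SE 0.73, adjusted p = 0.00107) and differed by 0.43 (SE 0.74, adjusted p = 0.731), a genotype difference of 4.30 (adjusted p = 0.0127). These 3 passed without LF32 (adjusted p = 0.0319, 0.0445 and 0.035) and not with the beta-actin covariate, where they were −3.36, −3.18 and 4.19 (adjusted p = 0.174, 0.227 and 0.128).

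Cyp26b1, which degrades retinoic acid, fell by 1.89 (SE 0.25, adjusted p = 4.83e-05) in the unedited rats. In the knockouts it differed by 0.39 (SE 0.25, adjusted p = 0.287), and the genotypes differed by 2.28 (adjusted p = 0.000565), also with the covariate (adjusted p = 0.0348). The uroplakin Upk1b fell by 2.89 in the unedited rats and differed by −0.37 in the knockouts, but its genotype difference of 2.52 did not pass (adjusted p = 0.0633). That of Krt17 was −2.45 (adjusted p = 0.0765). The genotype difference of S100a8 was −1.87 (adjusted p = 0.464), so a smaller response in the knockouts was not shown for it.

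Some calls rested on a single array other than LF32. Hbegf and Krt6c lost theirs without LF31, LF34, LF37 or LF38, Cd3e without LF31 or any of LF36 to LF39, Kif11 without LF38 and Sele without LF39. Desmin lost its call without LF37, LF38 or LF39, Dbp without LF33, LF34 or LF39, Elf5 without LF31, LF35 or LF38, and Actg2 without any array except LF34 and LF36. With the smooth muscle mean as a covariate the calls of Xpc, Slc30a7, Slc7a11, Ppp2r2a, Ifi27, Myh1, Csrp1, Synm, Tie1, Ptp4a3, Cyp1b1, Nr1d2, Tef, Tmigd1, Ptgs1 and Irf1 were lost as well as that of Klk10. Csrp1 and Synm are themselves among the genes of that mean, so their values with it say nothing about their own change. Ier5, Tef, Ptgs1 and Myh1 did not pass with the mean of all their probe sets. Calls not yet given with the beta-actin covariate were also lost with it (adjusted p = 0.0564 to 0.453). They were those of Adam17, Hbegf, Krt6c, Kif11, Acot1, Slc30a4, Rhobtb1, Cd3e, Ccl5, Icam1, Sele and Atp13a5.

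Leaving out LF32 mostly removed calls, and 59 genes passed only without it. They include Gata3, a transcription factor of epithelium and T cells, which read 5.24, 5.70, 6.06 and 5.36 against 5.96 to 6.31. Its difference was 0.50 (adjusted p = 0.0696) with LF32 and 0.65 (adjusted p = 0.0383) without. Icoslg, a costimulatory ligand of T cells, was 0.39 higher with LF32 (adjusted p = 0.0516) and 0.53 without (adjusted p = 0.0175). Rasal1, an inhibitor of Ras, differed by −0.59 with LF32 (adjusted p = 0.0541) and −0.78 without (adjusted p = 0.0261), and Dlk2, a Notch pathway protein, by −0.44 (adjusted p = 0.0551) and −0.56 (adjusted p = 0.036). In each of these 4 genes LF32 lay nearer to the ZD values than any other ZS array. This follows largely from their choice as genes that passed, without overlap, only when LF32 was left out.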

How the data were processed

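Transcript levels of rat oesophageal epithelium were measured on Affymetrix arrays, 1 array per sample, in 10 knockout samples and 20 others. The 20 others were the 10 untreated unedited samples and 5 in each group titled ZD-Anti-miR31. The antimiR groups entered the fit described below, and none of its contrasts given here used their means. The deposited table holds 1 log2 value for each probe set and array, which the authors made with Affymetrix Expression Console and RMA, per the submitters' processing notes. The versions, the array design and the genome build are not given in the sources used here. RMA corrects background and quantile-normalizes arrays together, so a level depends on the other arrays of its set. Array medians differ between the knockout and the other arrays, and differences were taken within a genotype only.

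Probe sets were named from GEO's platform annotation. For each of 14217 genes with 1 symbol the probe set with the highest mean over all 30 arrays was used. With limma 3.58.1 in R 4.3.3, 1 coefficient per group was fitted to all 30 arrays, with moderated tests and Benjamini-Hochberg adjustment over all genes at 0.05, in full and without LF32. Python 3.11.15, pandas 2.3.3 and matplotlib 3.10.9 did the rest. The number of arrays limits the precision. The fit was tested on simulated data.

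The comparison and the gene lists were chosen with earlier results of these data known, and list counts are descriptions. Named genes were, among those that passed without overlap of the groups, the 12 with the largest increase and the 12 with the largest decrease, excluding symbols that only name a locus, the 6 largest in each direction that passed only without LF32, in every list the 4 or fewer genes of lowest adjusted p, up to 4 genes in each direction with the smallest interaction p, and 17 genes fixed by name. The text gives most of these and says which others were chosen after their values were seen.

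The alternatives were quantile normalization, median centring, a filter that drops the 30% of genes with the lowest mean, robust fitting with a trend, array quality weights, a fit of the compared arrays alone, other rules for probe sets, the smooth muscle mean as a covariate and leaving out each knockout array in turn. The beta-actin 3′ minus 5′ covariate, leaving out both LF32 and LF35, and the repeat of the alternatives without LF32 were added after the data were seen. Promoter and microRNA sequences came from RefSeq tables on GRCr8, and both mature strands of miR-31a matched.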

Additional observations from a re-analysis of the deposited data

Results flagged for a closer look

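Single arrays stood far from the rest of their group for 16 of the 280 sets of values examined, and chance alone would flag about 1 set in 20. On the ZS array LF32 these were the levels of Plaat5 (4.95), Lrg1 (9.37), Sele (5.93), Esam (9.12), Me1 (10.5) and Dlk2 (7.85) and the mean of the endothelial list (7.83). Dlk2 was named for passing only without LF32, so its flag follows in part from that choice. On the ZD array LF35 the flagged values were the beta-actin 3′ minus 5′ difference (4.08), Cyp51 (11.0) and Cox5a (8.05). On the ZD array LF38 Slc7a11 (9.03) and Aox4 (8.01) stood apart, and on the ZD array LF39 C1qc (6.38) and Egfl7 (7.25). The level of Slc39a10 on the ZD array LF34 was 10.29 and that of Tef on the ZS array LF30 was 8.9, all in log2 units.

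The diet effect differed between knockout and unedited rats by a test of the difference itself for 57 of the 133 genes described, given here as the knockout minus the unedited diet difference in log2 units. Over all genes 8.39% passed, or 4.33% without LF32. Some of the 133 were named for a small p-value in this same test or after their values were seen, so their count describes the choice as well. For regulators and signalling genes it was 1.92 for Egr2, −2.37 for Id3, 0.67 for Sesn2, 1.72 for Eif4ebp2, 0.6 for Ppp6c, 1.53 for Elf5, 1.9 for Fam3b, 1.34 for Il1rn, −0.52 for Nfkb1 and −1.44 for Lrg1. For immune and vessel genes it was −1.91 for RT1-Db1, −1.59 for RT1-Ba, −1.56 for C1qc, −1.75 for C1qb, −2.05 for Sele and −0.68 for Egfl7. For enzymes and transporters it was 0.7 for Cyp51, −0.84 for Gpi, −0.83 for Pfkl, 0.56 for Me1, −0.73 for Slc3a2, −1.03 for Slc25a3, 0.67 for Rdh12, 2.28 for Cyp26b1, 4.3 for Aox4, −1.22 for Ptgs1, −3.62 for Ptgs2, −3.85 for Car2, −1.52 for Fxyd5 and −0.8 for Nipal2. For other genes it was 1.99 for Serpinb7, 0.86 for Dnajb6, −0.73 for Snrnp70, 1.17 for Rab14, −1.27 for Capns1, 0.88 for Tmem109, −0.79 for Jkamp and −0.86 for Nxf1. These 38 also passed without LF32. Of 19 further genes, 4 passed without LF32, at −1.49 for Cd3e, −0.84 for Icam1, 0.7 for Cox5a and −0.33 for Atp5f1a with all arrays. The other 15, which did not pass without LF32, were at −0.64 for Plaur, 0.44 for Klf4, 0.84 for Insig1, 0.56 for Msmo1, 2.41 for Acot1, −1.19 for P2rx1, −1.54 for Cd36, −1.56 for Ccl21, −0.67 for Col5a1, −0.99 for Tie1, −0.53 for P4ha2, −0.42 for Slc39a13, −0.65 for Ephx1, −0.28 for Sdha and −0.55 for Car11.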

How the results depend on the processing

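The count of genes that differed between the diet groups in the knockout rats, 3049, was within 1.5 times of that under quantile normalization, median centring, robust fitting with a trend, the filter on dim genes, a fit of the compared arrays alone, array weights and both other probe set rules. It was 1470 with the smooth muscle covariate, 983 with the beta-actin covariate and 1583 without LF32 and LF35, and 1566 to 3244 with each array left out, lowest without LF32. The count without LF32, 1566, was 3069 with array weights, 754 with the beta-actin covariate, and 796 to 1624 with a further array left out, 830 without LF31 and 796 without LF33. The count of genotype differences, 1193, was 147 with the beta-actin covariate, 533 without LF32 and LF35, and 615 to 1519 with each array left out. Reversed values were few. Actg2, itself among the genes of the smooth muscle mean, differed by 0.040 with that covariate (adjusted p = 0.922), and the protease Adam10, at −0.61 with all arrays, by 0.13 with the mean of all its probe sets and 0.20 with the beta-actin covariate, under which its genotype difference was 0.012. No paired analysis was possible because the array numbers are unique and the diet groups share none. Of 1087 called genes with a further probe set, 835 had the next brightest one on the same side of 0, and 29 had it called in the opposite direction. The signal over background of each probe set is not given in the table, so what dim genes limit was looked at only through the filter.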
